A study of Saccharomyces cerevisiae with 8 samples.

Results

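CAGE, a method that captures the capped 5′ ends of RNA, was applied to budding yeast, and the peaks described here lay between genes and away from gene starts. A native nuclear peak was taken when its summit lay in no protein-coding gene on either strand and when it overlapped no gene-start window on its own strand, which ran from 300 bp upstream to 100 bp downstream of a gene's annotated 5′ end, which in this annotation is the start codon. Peaks overlapping an annotated long terminal repeat or noncoding RNA gene were left out. The rule used position alone. It found 966 peaks over 8 libraries, 110 to 145 in a library, among 2995 to 3367 native peaks, which is 3.53% to 4.60% of them (median 3.82%). Merged by strand across libraries, they made 530 regions.

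All strains were BY4741, a haploid laboratory strain, and every one carried a synthetic human HPRT1 locus, so no library came from yeast without it. The 4 groups, with 2 libraries each, were synHPRT1 on a yeast artificial chromosome (YAC), synHPRT1 integrated in the genome, synHPRT1R on a YAC and synHPRT1R integrated, where synHPRT1R is the reversed sequence. The medium was SC-Leu for strains with a YAC and YPD for the others, both at 30 °C to an OD near 0.6, so context and medium cannot be told apart. Nothing in the labels says that replicates were separate cultures, so the p-values rest on library-to-library spread that could be technical.

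In budding yeast most genes are separated by short intervals, and RNA polymerase II starts transcription in nucleosome-depleted DNA at gene 5′ ends. It also starts elsewhere, giving upstream, antisense and intergenic noncoding RNAs, many of which are removed by the nuclear exosome or by the cytoplasmic nuclease Xrn1. Yeast initiation is favoured at a pyrimidine followed by a purine. Some noncoding transcripts and long 5′ leaders are known to regulate the gene they run into.

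The sequences below are shown because they surround the 5′ edges of the 8 regions listed in most libraries, ordered by the median percentile of their fold, and of the pair of regions that separated YAC from integrated libraries. Each is the sacCer3 (RefSeq R64) sequence of the transcribed strand, 5′ to 3′, centred on the 5′ edge of the region's peak with the highest deposited −log10 p. Regions are named by the flanking genes. For PIR3/YKL162C, beside the synthetic insert, the bases before the edge may differ in the integrated strains. The capitals mark the edge base and the base after it.
MRX16/YCF1, minus strand, chrIV:721499-721599: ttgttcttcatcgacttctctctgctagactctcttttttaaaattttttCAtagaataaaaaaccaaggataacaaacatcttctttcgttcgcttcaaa
YLR162W/RRT15, minus strand, chrXII:490371-490471: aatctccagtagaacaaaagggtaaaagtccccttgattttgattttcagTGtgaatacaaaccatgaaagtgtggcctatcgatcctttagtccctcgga
TOS3/MPT5, minus strand, chrVII:166084-166184: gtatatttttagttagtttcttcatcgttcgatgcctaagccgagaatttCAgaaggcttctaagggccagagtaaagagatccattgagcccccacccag
ACA1/SPO73, plus strand, chrV:242455-242555: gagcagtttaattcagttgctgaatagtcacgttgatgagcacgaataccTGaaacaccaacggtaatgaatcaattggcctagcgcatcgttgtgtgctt
FLO10/NFT1, plus strand, chrXI:650427-650527: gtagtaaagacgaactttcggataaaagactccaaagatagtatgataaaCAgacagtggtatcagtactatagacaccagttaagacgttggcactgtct
YCR001W/CDC10, plus strand, chrIII:116345-116445: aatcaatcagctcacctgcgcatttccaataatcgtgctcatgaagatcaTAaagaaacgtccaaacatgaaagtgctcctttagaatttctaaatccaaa
GCG1/CHD1, plus strand, chrV:503985-504085: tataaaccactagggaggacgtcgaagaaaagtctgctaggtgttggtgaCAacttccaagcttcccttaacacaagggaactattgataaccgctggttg
RPL19B/LSM2, minus strand, chrII:169899-169999: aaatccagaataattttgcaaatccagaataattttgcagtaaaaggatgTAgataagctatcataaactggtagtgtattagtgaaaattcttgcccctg
YJL107C/IME2, minus strand, chrX:220643-220743: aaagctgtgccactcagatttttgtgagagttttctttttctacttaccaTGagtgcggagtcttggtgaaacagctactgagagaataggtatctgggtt
PIR3/YKL162C, minus strand, chrXI:146232-146332: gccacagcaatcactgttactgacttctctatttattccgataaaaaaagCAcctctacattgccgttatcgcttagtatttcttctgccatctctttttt

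In each of these sequences, centred on the edge of the strongest peak, the edge base was a pyrimidine and the next base a purine. At the median edge over libraries this step was absent for the YLR162W/RRT15, TOS3/MPT5, FLO10/NFT1, YJL107C/IME2 and PIR3/YKL162C regions. Of the named regions not printed, RPL25/MDH2 (GT) and the regions upstream of GCN4 (AC and CC) lacked it at the strongest peak, and the others had it. Most of the peaks between genes had a pyrimidine followed by a purine at their edge. Of their 966 peaks, 754 had the width of 200 bp, which was the smallest listed, and the summit of such a peak lay a median of 100 bp downstream of its 5′ edge. At the 709 distinct edges of these 200-bp peaks the pyrimidine-purine step was present in 76.4%, with 70.6% to 81.0% by library. At gene-start peaks of 200 bp, which were 33.1% of all gene-start peaks, it was present in 78.1% of 5504 edges. At antisense peaks of this width inside genes it was present in 72.0% of 1278 edges, and at such sense peaks inside genes in 53.9% of 1849. Over all eligible intergenic positions it occurred in 23.7%. An A stood 7 bases before the edge in 58.1% of the intergenic edges, in 62.4% of gene-start edges and at 32.5% of eligible positions. Regions listed in 1 library had the step at 74.8% of their edges, and regions listed in 4 or more at 82.0%. These shares are descriptions, since edges of one region in several libraries lie close together. For gene-start peaks of all widths, the 5′ edge lay a median of 53 bp before the start codon.

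**Figure D1:**
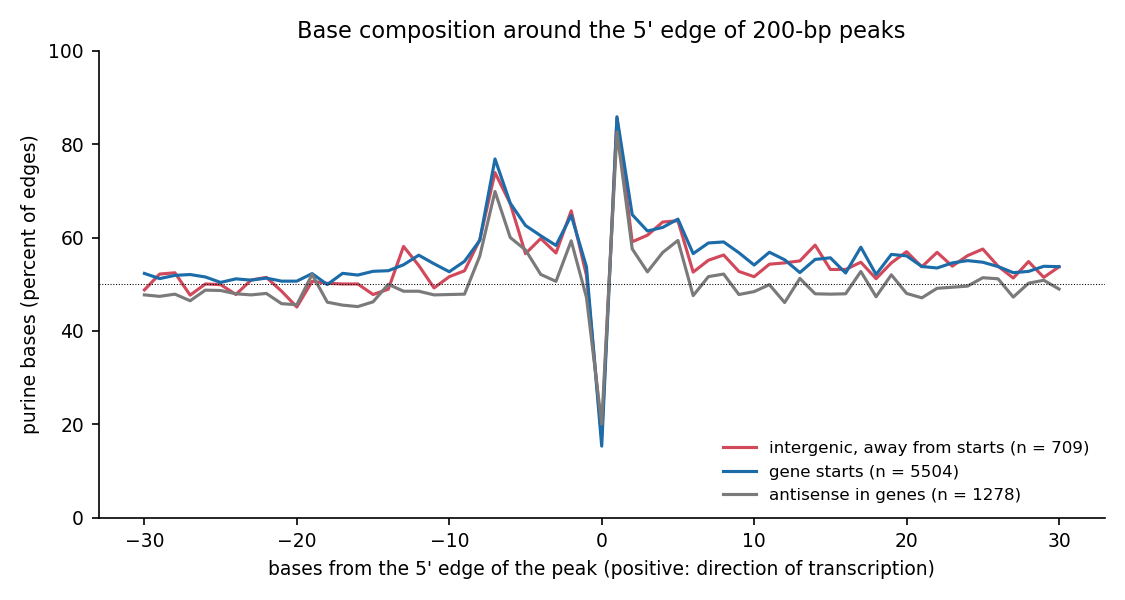
Purine bases in percent (vertical axis) by distance in bases from the 5′ edge of 200-bp peaks (horizontal axis) for intergenic peaks away from gene starts, gene-start peaks and antisense peaks inside genes. All curves dip at the edge and peak at the next base, where 85.6% of the 709 intergenic edges had a purine.

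The rule placed peaks by the deposited summit, which lay downstream of this pyrimidine-purine step. In 45 of the 966 peaks (4.66%) the 5′ edge lay inside a protein-coding gene, 17 on the sense and 28 on the antisense strand. Near the limit of the rule, 103 peaks lay within 100 bp of a start window, with a median fold of 2.41. Just outside it, 71 intergenic peaks overlapped a window by at most 50 bp, with a median fold of 2.68.

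The sequence ahead of the edge was searched for 3 short motifs on both strands, in the window from 150 to 30 bases upstream of each region's edge. A TATA box, searched as TATAAA or TATATA, stood in 164 of 530 windows (30.9%), against 36.2% at gene starts, 26.0% at antisense regions in genes and 27.5% of all eligible windows. TTACCCG, the core site of the general regulatory factor Reb1, stood in 14 windows (2.64%), against 7.84% at gene starts, 3.43% at antisense regions in genes and 1.41% of eligible windows. A run AAAAAAA was found in 31.5% of the windows, against 35.3% at gene starts, 19.9% at antisense regions and 21.8% of eligible windows. A match is a description of the letters and not of a bound factor. The bases around the edges had a median AT content of 60.4%, compared with 64.4% at gene starts, 59.4% at antisense regions in genes and 65.3% over eligible windows.

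The next comparison asked how dense, strong and repeatable these peaks were beside the other native classes. Between genes there were 0.0263 ± 0.00228 peaks per kb of eligible strand sequence (SD, n = 8), over 4596 kb, or 19.0% of all strand bases. Gene-start windows held 1.03 ± 0.0400 per kb. The intergenic density was 39.2-fold lower, a log2 ratio of -5.29 ± 0.13, and every one of the 8 libraries showed this direction (two-sided exact sign-flip test, p = 0.00781, the smallest that 8 libraries allow). The size of this ratio depends on the counting, since any base of a peak in a window made it a gene-start peak. Only window bases counted as length. With windows judged by the summit base alone the log2 ratio was -4.86, and with peaks and windows judged by the 5′ edge it was -4.44. Antisense strands of genes held 0.0248 ± 0.00362 peaks per kb. The log2 ratio to them was 0.09 ± 0.22, higher in 5 of 8 libraries, which did not pass the threshold (exact sign-flip test, p = 0.273).

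That last comparison depended on how a peak was placed and on how the start windows were applied. In an alternative, each peak was placed by its 5′ edge, and a start window excluded it only when the edge base lay inside. Peaks whose body reached a window could then count, so both rules changed together. In this way 181 to 229 peaks of a library had their edge between genes and outside start windows, 5.95% to 7.26% of native peaks. Their density was then 0.0460 ± 0.00308 per kb, against 0.0204 ± 0.00347 on antisense strands of genes (SD, n = 8). The ratio was 2.28-fold, a log2 value of 1.19 ± 0.25, and above 0 in 8 of 8 libraries (exact sign-flip test, p = 0.00781). This alternative was chosen after the data were seen. With peaks placed by the summit and only the window rule changed, to the summit base alone, the log2 ratio was 0.31 (exact sign-flip test, p = 0.00781).

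Intergenic peaks ranked low. The deposited fold of a peak over its background is the authors' value and was ranked only within the list of its library and strand. The median fold of intergenic peaks was 2.30 to 3.01 over the libraries, and of gene-start peaks 6.33 to 6.90. Their median percentile was 19.9 to 26.6, against 57.9 to 59.3 for gene-start peaks, a difference of -35.6 ± 2.38 points in 8 of 8 libraries (exact sign-flip test, p = 0.00781). Only 1 or 2 intergenic peaks of a library ranked above percentile 90 of their list. From antisense peaks in genes they differed by -2.13 ± 3.43 points (exact sign-flip test, p = 0.117). The median width was 200 bp in every library, and gene-start peaks were wider, with medians of 213 to 219 bp (difference -15.3 ± 2.09 bp, exact sign-flip test, p = 0.00781).

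**Figure D2:**
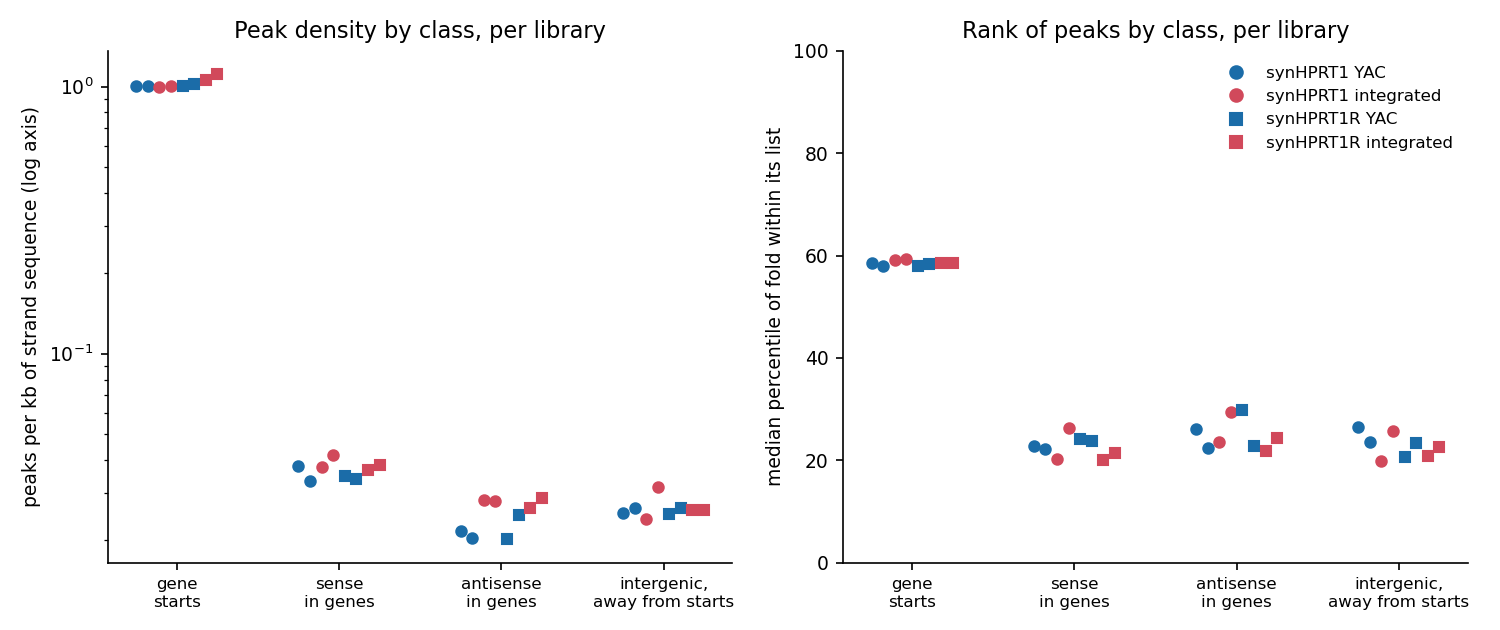
Peaks per kb of strand sequence on a log axis (left) and median percentile of fold within a list (right) for 4 native peak classes, with 1 symbol per library, coloured by context and shaped by sequence. Intergenic peaks away from starts lay near 0.0263 per kb and between percentiles 19.9 and 26.6 in all libraries, below gene starts on both scales.

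Most regions were listed in a single library. Of the 530 regions, 341 were found in 1 library, 93 in 2, 30 in 3, 27 in 4, 14 in 5, 11 in 6, 8 in 7 and 6 in all 8. A region was therefore present in at least 4 libraries in 66 cases (12.5%), beside 2492 of 4054 gene-start regions (61.5%) and 107 of 990 antisense regions in genes (10.8%). Between the replicates of a group, 15.6% to 22.0% of the combined intergenic peaks were shared, against 61.3% to 64.7% of gene-start peaks. The difference of -43.9 ± 3.76 points had the same direction in all 4 pairs (exact sign-flip test, p = 0.13, the smallest that 4 pairs allow). Regions found in more libraries had higher folds. The median fold was 2.02 for regions in 1 library, 2.63 in 2 or 3, 2.87 in 4 or 5 and 4.59 in 6 to 8. The lists carry no read totals. Depth is therefore unknown, and a missing peak is not an absent transcript.

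**Figure D3:**
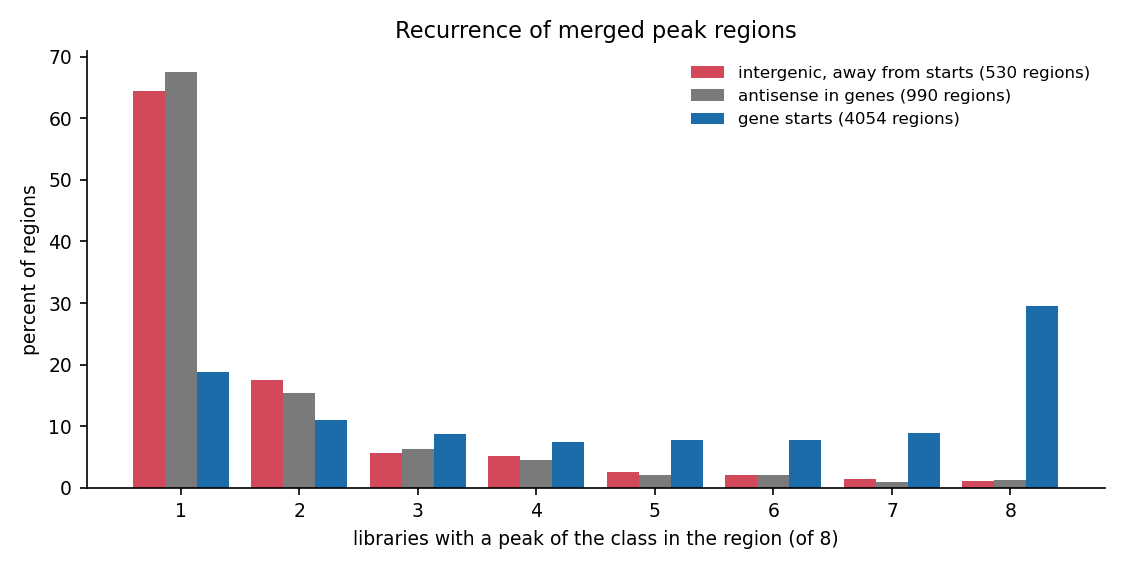
Percent of merged regions (vertical axis) by the number of libraries, of 8, with a peak of that class (horizontal axis), as bars for 3 classes. Intergenic and antisense regions were mostly found in 1 library, 341 of 530 for the intergenic ones, and gene-start regions most often in all 8.

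The position of the peaks relative to their neighbours was examined next. Intergenic intervals were classed by the flanking genes as divergent (both genes start there), tandem (a 3′ end and a start) or convergent (both genes end there). Divergent intervals held 352 peaks at 0.0368 ± 0.00228 per kb, tandem intervals 531 at 0.0280 ± 0.00370 and convergent intervals 83 at 0.0109 ± 0.00285 (SD, n = 8). The stretches beyond the last gene of a chromosome held 0. Density was 3.49-fold higher in divergent than in convergent intervals (log2 1.80 ± 0.35) and 2.64-fold higher in tandem than in convergent ones (log2 1.40 ± 0.43). Divergent exceeded tandem intervals 1.32-fold (log2 0.40 ± 0.21). Each of these 3 differences had its direction in 8 of 8 libraries (exact sign-flip test, adjusted p = 0.00781).

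**Figure D4:**
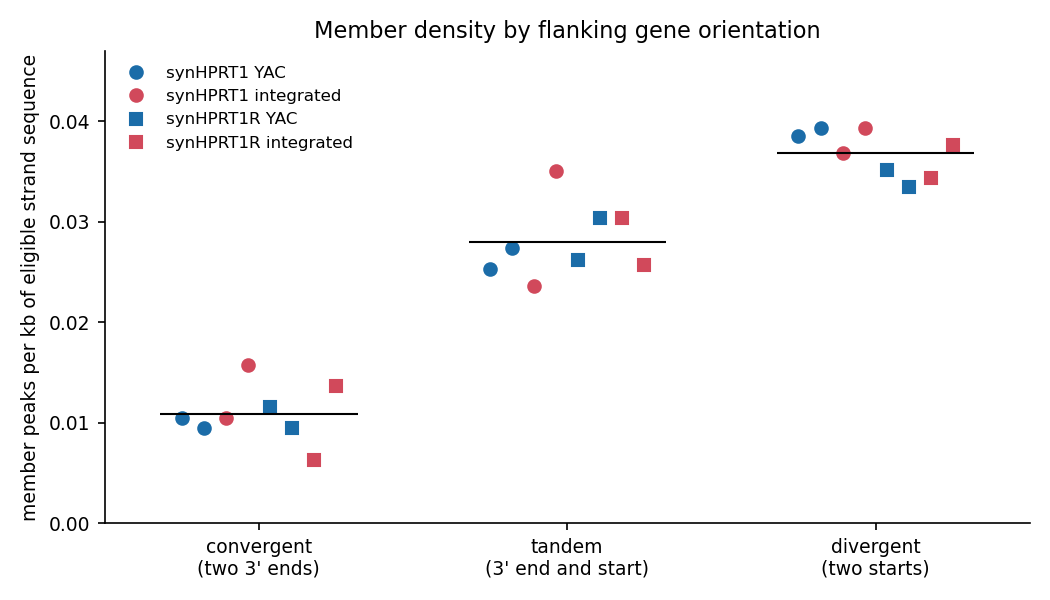
Intergenic peaks per kb of eligible strand sequence (vertical axis) in convergent, tandem and divergent intervals, with 1 symbol per library and a line at the mean. Convergent intervals (mean 0.0109) lay below tandem (0.0280) and divergent ones (0.0368), and the library values of convergent intervals did not overlap the others.

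Seen in the direction of transcription, a peak had a gene ahead of it and a gene behind it. Peaks running towards the start of a sense gene, with a gene on the other strand starting behind them, numbered 352 at 0.0368 per kb. Those running towards the 3′ end of an antisense gene, with an opposite start behind, numbered 407 at 0.0324 ± 0.00404 per kb. Where a gene's 3′ end lay behind, there were 124 peaks at 0.0193 ± 0.00499 per kb towards a sense gene and 83 at 0.0109 per kb towards an antisense gene. Thus 759 of the 966 peaks had an opposite gene start behind them. Distances given for a region were measured from the median 5′ edge of its peaks, which can differ from the edge of its printed sequence. Ahead of a sense gene, 253 regions lay upstream, and none had its edge within 500 bp of the start codon, a limit set by the start window and the peak width. Of these, 92 lay 500 to 700 bp before it, 62 at 700 to 1000 bp, 74 at 1000 to 2000 bp and 25 farther.

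Behind the peaks, density changed with the distance from the opposite gene start. It was 0.0232 ± 0.00487 per kb with the 5′ edge within 300 bp of that start, 0.0459 ± 0.00820 at 300 to 600 bp, 0.0428 ± 0.00647 at 600 to 1000 bp and 0.0334 ± 0.00585 farther away. Where the opposite gene had a start peak of its own, the values in the same order were 0.0289, 0.0531, 0.0568 and 0.0345 per kb, and where it had none 0.0193, 0.0419, 0.0360 and 0.0329. The lengths behind these densities counted every eligible position. They include positions from which a 200-bp peak would reach a start window or have its summit in a gene. How many such positions each distance class held was not measured, so the classes are not strictly like for like. Of the genes whose opposite-strand start window held an intergenic summit, 40.5% ± 7.46 had a start peak, against 41.0% ± 1.58 of all other genes. The difference of -0.56 ± 8.26 points did not pass the threshold (exact sign-flip test, p = 0.875). With both the placement and the start windows judged by the 5′ edge base, the shares were 54.0% ± 6.11 and 40.9% ± 1.58. The difference was 13.1 ± 6.15 points in 8 of 8 libraries (exact sign-flip test, p = 0.00781). Among the sense genes ahead of an intergenic peak, 28.1% to 48.4% had a start peak in the same library, beside 39.9% to 44.4% of all genes.

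On both strands of the same interval, 29 pairs of intergenic regions had 5′ edges within 300 bp of each other. Between ACA1, which encodes a bZIP transcription factor, and the sporulation gene SPO73, a plus-strand region found in 8 libraries faced a minus-strand region found in 4, with edges 206 bp apart. Between TOS3, which encodes a kinase that activates Snf1, and MPT5, which encodes a Puf-family mRNA-binding protein, the minus-strand region was found in 8 libraries and a plus-strand region in 1.

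Among the regions themselves, the strongest lay on the minus strand between MRX16 and YCF1 on chromosome IV, at chrIV:721327-721550. YCF1 encodes a vacuolar transporter of glutathione conjugates, and the region overlapped the annotated pseudogene CCW22. Start windows were drawn for protein-coding genes alone, so the rule did not exclude peaks at the start of a pseudogene. Where this region lies relative to the start and strand of CCW22 was not examined. The region's fold was 46.9 at the lowest, 48.2 at the median and 49.9 at the highest over 8 libraries, and its median percentile was 97.2. The libraries were nearly level. The highest fold in any native list was 49.99, so folds near it sit close to the top of the scale.

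The minus-strand region between YLR162W and RRT15, at chrXII:490039-490422, had folds of 14.3, 20.2 and 34.8 (lowest, median and highest of 8), at a median percentile of 86.2. All of its 31-base words (100%) occurred elsewhere in the nuclear genome, so its reads cannot be assigned to this copy alone. Where the copies of this region lie, and what they encode, was not examined. The other regions found in all 8 libraries were weaker and had unique sequence. Between TOS3 and MPT5 the folds of the minus-strand region were 2.91, 5.63 and 9.30. Its median edge, at position 166026, lay 935 bp before TOS3, and the edge of its printed sequence lay at 166134. Upstream of SPO73, the plus-strand region at chrV:242488-242735 had folds of 3.02, 6.37 and 14.0, with its edge 675 bp before that gene. Its 4 YAC libraries had folds of 8.76, 14.0, 8.44 and 11.0 and its 4 integrated libraries 3.98, 3.02, 4.12 and 4.31. The ranges of the contexts did not overlap there, and its percentiles were 61.7 to 75.7 in the YAC and 20.4 to 43.6 in the integrated libraries. This was noticed after the values were seen and was not tested. How many other regions split in this way was not counted.

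Between FLO10, a flocculin gene, and NFT1, the plus-strand region at chrXI:650458-650716 had folds of 2.03, 4.59 and 8.19, and between YCR001W and the septin gene CDC10 the plus-strand region at chrIII:116352-116818 had 1.60, 3.10 and 6.72. The latter ran antisense towards CDC10 in a convergent interval. Both had overlapping ranges between contexts and between sequences.

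A further 6 regions were named from those found in 7 libraries. The plus-strand region ahead of CHD1, which encodes a chromatin remodelling ATPase, had folds of 6.89 to 12, with its edge 1388 bp upstream of CHD1 and 222 bp behind the start of GCG1. The minus-strand region between the ribosomal protein gene RPL19B and LSM2 had 4.36 to 11.2 and ran antisense towards RPL19B. Upstream of ADH1, the main fermentative alcohol dehydrogenase gene, a plus-strand region pointed away from the gene with folds of 3.62 to 12.3, its edge 862 bp behind the ADH1 start. The plus-strand region between PLS1 and PHO23, which encodes a subunit of the Rpd3L histone deacetylase complex, had 4.30 to 8.72 where it met the rule. Ahead of RRT13, a plus-strand region lay 2679 bp behind the start of ICL1, the isocitrate lyase gene of the glyoxylate cycle. Its folds were 10.7, 6.20, 8.48 and 7.05 in the YAC libraries and 3.88, 4.38 and 4.01 in the 3 integrated libraries that listed it. This split was not tested either. The region between CSS1 and SOA1, a sulphur compound transporter gene, had 2.21 to 6.88 and overlapped the pseudogene SDL1. No start window was drawn for SDL1 either. In convergent intervals the best placed others were a region between RPL25 and MDH2, with folds of 2.1 to 9.45 in 6 libraries, and a region between YJR128W and EFM3, with 1.57 to 2.87 in 6 libraries.

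**Figure D5:**
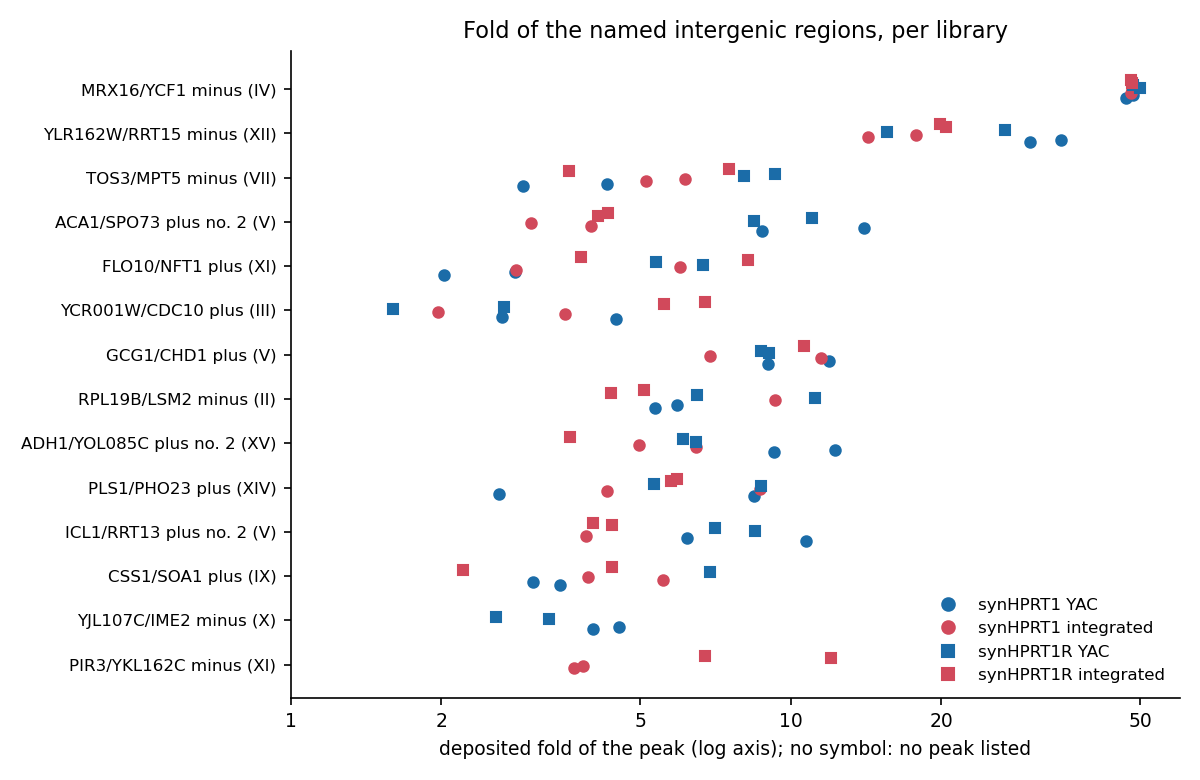
Deposited fold on a log axis of the 12 regions found in most libraries and, in the lowest rows, the pair that separated the contexts, with 1 symbol per library and its chromosome in brackets. The MRX16/YCF1 region stood at 46.9 to 49.9 in every library, and no symbol is drawn where no peak was listed.

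The contexts were then compared over the intergenic peaks as a class. They made 3.81%, 4.04%, 3.83% and 3.91% of native peaks in the YAC libraries and 3.59%, 4.60%, 3.73% and 3.53% in the integrated ones. The integrated values surrounded those of the YAC libraries, with means of 3.86% ± 0.497 and 3.90% ± 0.104 (SD, n = 4 each, exact permutation test, p = 0.943). Leaving out synHPRT1 integrated replicate 2, the library with 145 such peaks, put the YAC libraries 0.28 points above the other integrated ones (exact permutation test, p = 0.0286, the smallest possible). By sequence, the share was 3.75% ± 0.163 in synHPRT1R and 4.01% ± 0.434 in synHPRT1 libraries (exact permutation test, p = 0.371).

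Single regions that separated the contexts were rare. A region was called when all 4 libraries of one context and none of the other 4 had a peak there. This held for 2 of the 530 intergenic regions, where 0.348% of all 7181 native regions were called, in either direction. In 4 of 4 YAC libraries alone (0.139% of all regions), the minus-strand region at chrX:220488-220693, between YJL107C and the meiotic kinase gene IME2, had folds of 4.02, 4.53, 3.28 and 2.57, and no peak was listed there in the integrated libraries. Its edge lay 700 bp behind the start of IME2 and 674 bp before YJL107C.

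In 4 of 4 integrated libraries alone (0.209% of all regions), the minus-strand region at chrXI:145916-146282, between the cell wall protein gene PIR3 and YKL162C, had folds of 3.69, 3.85, 12 and 6.73, and none was listed in the YAC libraries. This region lay beside the synthetic insert. In the reference that holds the insert in chromosome XI, the first synthetic peak began at position 146386, 104 bp past the region's end. Native peaks behind the insert were shifted by 100578 bp. The insertion site was inferred from these peak positions, so the junction is not known to the base. The 50 sacCer3 bases printed before the edge lie between the region's end and that synthetic peak. In the integrated strains the DNA there may differ from them. The region was listed in the same 4 libraries against that reference. Integration next to it, and the medium, differed together between the contexts and cannot be told apart. By sequence, 0 of the 530 intergenic regions separated the libraries, where 0.139% of all native regions did (0.0836% towards synHPRT1R and 0.0557% towards synHPRT1).

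Genes known for upstream transcription were looked up in lists. Over all 6002 genes, 250 (4.17%) had an intergenic region overlapping the stretch from 300 to 1500 bp upstream on their strand, and 31 (0.516%) had one in 4 or more libraries. Of 14 loci known for regulatory noncoding RNA, 1 had such a region. It was ADH3, a mitochondrial alcohol dehydrogenase gene, with folds of 2.95 and 3.81 in 2 libraries and an edge 580 bp before the start codon. Of 16 genes known for long 5′ leaders, 5 had one. GCN4, the activator of amino acid biosynthesis genes whose leader holds upstream reading frames, had an edge 573 bp before its start codon and folds of 1.97, 1.47, 2.94 and 3.34 in 4 libraries. A region with its edge 1220 bp before GCN4, beyond YEL008W, met the rule in 1 library, while 5 libraries listed a peak there, with folds of 2.17 to 3.88. The cell cycle gene CLN3, the cell wall sensor gene WSC2 and the filamentation factor gene TEC1 had a region in 1 library each, with folds of 1.51, 1.47 and 2.33, and ICY1 had one in 3 libraries with folds of 1.27, 1.80 and 2.16.

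In the other lists, 7 of 51 DNA-binding transcription factor genes had an upstream region. Of these, MIG2, which encodes a repressor of glucose-repressed genes, and ACA1 had one in 4 libraries, with median folds of 3.32 and 2.62. The cell wall and cell surface list had 5 of 40, the nutrient transporter list 5 of 40, and the list of cytosolic ribosomal protein genes 0 of 40. Among the transporters, the ammonium permease gene MEP2 had a region in 5 libraries with a median fold of 2.87. Its 5′ edge lay 1650 bp before MEP2, so that only its downstream part reached the searched stretch, and the next gene ahead of it was YNL143C. These counts were not tested, since a longer interval ahead of a gene offers more room for a region.

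By other annotation, 6 regions (1.13%) overlapped a pseudogene, which 0.744% of eligible bases did, and 3 of the 6 were found in 4 or more libraries. Origins of replication were overlapped by 13 regions (2.45%, against 3.25% of eligible bases), telomeric elements by 3 (0.566%, against 1.88%) and centromeres by 0 (against 0.0793%). For these features a region counted when any of its bases overlapped, which a region does more readily than a single base. The shares of regions and of bases are therefore not like for like. Near copies of other sequence made up 23 regions (4.34%), where 7.40% of eligible bases were of this kind. Within 30 kb of a chromosome end lay 66 regions (12.5%), where 17.5% of eligible bases lay. The plus strand held 52.4% to 69.7% of the intergenic peaks and 52.3% to 56.0% of all native peaks. By chromosome, density ran from 0.0587 regions per kb on chromosome III to 0.159 on chromosome XIII.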

How the data were processed

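CAGE peak lists of 8 libraries were used as deposited. The submitters' processing notes name MACS2 2.1.0, deepTools 3.5.0, Bowtie2 2.2.9, bcl2fastq 2.20 and SAMtools 1.9 with sacCer3, without their roles. The authors deposited 32 lists, 4 per library (each strand against 2 references), not pooled. The deposited fold is a ratio of a peak to its background, the deposited −log10 columns hold its p-value and q-value (lowest native −log10 q 1.31), and the deposited score was not used. Members came from the 16 lists of the reference with the synthetic DNA on a contig of its own. Depth is unknown, and no molecular identifiers are mentioned.

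Forward lists were taken as the plus strand, since 2371 to 2650 peaks of a library then lay at gene starts, against 589 to 666 with strands swapped. Positions were compared with RefSeq R64 (6002 nuclear protein-coding genes, 411 noncoding RNA genes, 384 long terminal repeats). No peak ran past a chromosome end. Overlapping peaks on a strand (at least 1 bp) were merged into regions across libraries, and densities are per kb of strand positions open to a class.

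Tests were exact and two-sided, with Benjamini-Hochberg adjustment over the 3 interval comparisons, in Python 3.11.15 with numpy 2.4.6, pandas 2.3.3 and scipy 1.17.1. The functions were tested on simulated data. The members and lists were chosen with earlier results of these data known. Named regions were up to 12 in most libraries by median percentile of fold, up to 6 per direction in 4 of 4 against 0 of 4 libraries, those upstream of genes of the first 2 lists, and up to 3 per interval class. The rule set printed sequences on the summit. They were centred on the 5′ edge instead, after the summit proved to lie about 100 bp downstream of it. Alternatives covered the q threshold, start windows, near copies, chromosome ends, the other reference, overlap, strand, leaving out each library, and a replicate block. Added after the data were seen were the 5′ edge (for both placement and start windows), chromosome XI and a narrower denominator.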

Additional observations from a re-analysis of the deposited data

Results flagged for a closer look

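Counts and densities of the intergenic peaks were screened for a library far from the others of its set, over 50 sets of 4 or 8 libraries, and 5 were picked out. Chance alone picks out about 1 set in 20. The sets share libraries and peaks, so the 5 are not independent of each other. In synHPRT1 integrated replicate 2 the number of intergenic peaks was 145, the highest of the 8 libraries. Its density of 0.03155 per kb is the same count over a fixed length and adds nothing to it. The same library had 0.0157 peaks per kb in convergent intervals, apart from the other 3 synHPRT1 libraries. In synHPRT1 YAC replicate 1 the minus strand held 52 intergenic peaks and the plus strand 55.17% of them, both apart from the other 3 YAC libraries. Their causes were not tested. The effect of context on the members' share was -0.16 points in synHPRT1 and 0.24 points in synHPRT1R strains. The difference of 0.40 points did not pass the threshold (exact permutation test of context labels within each sequence, p = 0.5).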

How the results depend on the processing

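Over 14 results, 197 of 240 alternative values kept their direction and side of the threshold, or stayed within 1.5 times for counts. The comparisons with gene starts, replicate sharing included, and the 3 interval comparisons did so under every alternative run. The log2 density ratio to antisense strands of genes was 0.31 with start windows judged by summit alone (exact p = 0.00781), 0.28 without near copies (p = 0.0234), 0.23 without chromosome ends (p = 0.0234), 0.21 with the narrower denominator (p = 0.0469), 1.19 by 5′ edge (p = 0.00781) and -0.080 on the minus strand (p = 0.477), all exact sign-flip tests. With the 5′ edge, the placement and the start-window rule changed together, and both move peaks between these classes. For the other shifts the cause was not tested. The percentile difference from antisense peaks turned to 1.46 at a −log10 q of at least 10 and to 0.82 by 5′ edge, neither past the threshold. The share by context turned to -0.0012 points with the wider start window, -0.076 without near copies, -0.026 without chromosome ends and -0.044 by 5′ edge, and ran from -0.072 to 0.28 when each library was left out. The share by sequence turned to 0.059 points by 5′ edge. The difference in opposite start peaks was 0.066 points with the wider window, 4.27 by summit alone, 2.80 without near copies, 0.047 without chromosome ends, 13.1 by 5′ edge and -1.72 to 1.83 with each library left out.

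Regions separating the contexts numbered 1 with the wider window, the other reference or chromosome XI left out, 4 by summit alone or by 5′ edge, and 2 to 11 with a library left out, the most without synHPRT1 integrated replicate 1 (fewer libraries make the call easier). Those separating the sequences numbered 1 by summit alone, 2 by 5′ edge and 0 to 2 with a library left out. Replicate numbers did not pair the libraries, with correlations of -0.03 to 0.01 over 6 pairs. With the replicate block the share by context differed by 0.037 points (exact p = 0.889) and by sequence by -0.26 points (exact p = 0.444), so no call changed. Outside chromosome XI, 900 of 900 intergenic peaks were also listed against the other reference. Depth is unknown.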
